A study of Mus musculus with 2 samples.

Results

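The epidermal growth factor (EGF) family was examined in single-cell RNA sequencing (scRNA-seq) of the P14 mouse lung. The members were 9 genes taken by symbol from the 32285 genes in the count tables, as ligands and receptors of this family. They comprised 5 ligands (*Areg*, *Ereg*, *Hbegf*, *Tgfa* and *Nrg1*) and 4 receptors (*Egfr*, *Erbb2*, *Erbb3* and *Erbb4*). All 9 had unique molecular identifiers (UMIs, each standing for 1 captured RNA molecule) in both libraries.

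The study examined how loss of *Hhip*, which encodes a secreted inhibitor of hedgehog signaling, affects the forming alveoli. Lung stromal and epithelial cells were sorted from 1 mouse per condition and mixed 3:1, with CD31- and CD45-positive cells gated out. Both mice carried one *Gli1 creER* allele and were homozygous for floxed *Hhip*. The control mouse received oil, the *Gli1 HHIPCKO* mouse received tamoxifen, and both lungs were taken at postnatal day 14. The creER is driven by *Gli1*, so recombination starts in *Gli1*-expressing stromal cells, and epithelial cells were not the cells targeted. No control with tamoxifen but without the floxed allele was analysed here, so deletion and exposure to tamoxifen cannot be told apart.

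The control library held 43291709 UMIs in 10999 cells, with a median of 3531 UMIs per cell, and the *Gli1 HHIPCKO* library held 52338969 UMIs in 12350 cells, with a median of 3720. After filtering, 10917 and 12115 cells were kept. The libraries shared 193 cell barcodes, or 1.75% of those in the control library and 1.56% in the other. *Hhip*, the targeted gene, was at 332 CPM (UMIs of the gene per 1000000 UMIs) in the kept control cells and at 89.3 CPM in the *Gli1 HHIPCKO* cells. The mice also differed in sex-linked genes. *Xist*, the RNA of the inactive X chromosome, had a UMI in 0.110% of the cells of the control and 56.7% of those of the other library, while the Y-linked *Ddx3y* had 1468 UMIs in the control library and 0 in the other. The effects of sex and of the deletion therefore cannot be told apart in any value below.

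EGF family ligands are made as membrane-anchored precursors that metalloproteases release, after which they act on neighbouring cells or on the cell that made them. They bind ERBB receptor tyrosine kinases, which pair with each other and signal through adaptors to the ERK and AKT pathways. In the lung, this signaling is known for its roles in epithelial growth and repair and in exchange between epithelium and mesenchyme.

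Cells were clustered without the members, and clusters were called "-like" from marker genes. The classes included alveolar myofibroblast-like (ALMF-like) cells, with 1309 control and 241 *Gli1 HHIPCKO* cells, ductal myofibroblast-like (DMF-like) cells, with 952 and 1151, and alveolar type 2-like (AT2-like) cells, with 2989 and 2825. A further 590 control and 1443 *Gli1 HHIPCKO* cells carried both ALMF and DMF markers and are called mixed myofibroblast-like. One of the mixed clusters, with 486 control and 666 *Gli1 HHIPCKO* cells, was led by the stress-responsive genes *Socs3*, *Egr1* and *Junb*. DMF-like cells came from 2 clusters, one with 921 control and 23 *Gli1 HHIPCKO* cells and the other with 31 and 1128, so the effects of library and of cell state cannot be told apart there. AT2-like cells also came from 2 clusters, one with 1996 control and 462 *Gli1 HHIPCKO* cells and one, led by *Lcn2*, with 993 and 2363. The first was led by *Ager* and had *Aqp5* among its 10 leading genes, both alveolar type 1 markers, beside the AT2 marker *Sftpc*. No cluster was named for alveolar type 1, vascular smooth muscle, neuroendocrine or basal cells, and cells left unnamed made up 14.7% (control) and 16.1% (*Gli1 HHIPCKO*). Endothelial-like, lymphocyte-like, myeloid-like and red cell-like classes were found although the sort aimed at stromal and epithelial cells.

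No test was made, because 1 mouse stands for each condition and variation between animals is unknown. UMIs of a gene were summed within a class and given as CPM of that class with a 95% exact Poisson interval. Ratios are log2 of the *Gli1 HHIPCKO* CPM divided by the control CPM, with a 95% exact binomial interval. The intervals reflect molecule counting alone and leave out biological variation. A gene counted as measured in a class with at least 50 UMIs over both libraries, and as past 2-fold where the log2 ratio was at least 1 in size. Ratios were taken in classes with at least 50 cells in each library.

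*Areg* encodes amphiregulin, a ligand of EGFR that lies on chromosome 5 of GRCm38 (chr5:91139599-91148432). In AT2-like cells it had 1249 UMIs in the control library, or 84.6 CPM (80.0 to 89.4), and 540 UMIs in the *Gli1 HHIPCKO* library, or 32.1 CPM (29.5 to 35.0). The *Gli1 HHIPCKO* level was the lower, with a log2 ratio of −1.40 (−1.54 to −1.25). It was the 1 member of 6 measured in AT2-like cells that was past 2-fold, beside 2.45% of all 10995 genes measured in that class. The difference was present in both AT2-like clusters. The *Lcn2*-led cluster held 77.6 CPM of *Areg* in control and 33.7 CPM in *Gli1 HHIPCKO* cells (log2 ratio −1.20, −1.39 to −1.01), and the other cluster held 88.7 and 20.7 CPM (log2 ratio −2.10, −2.58 to −1.66). An unnamed cluster with AT2 markers and markers of another lineage held 67.2 CPM in 400 control cells and 29.5 CPM in 433 *Gli1 HHIPCKO* cells. In the other unnamed clusters where AT2 markers scored highest, the ratios were −0.99 (−1.61 to −0.35), −0.61 (−2.40 to 0.89), −1.08 (−2.17 to 0.02) and −2.53 (−3.85 to −1.40).

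The share of AT2-like cells with an *Areg* UMI was 17.7% (16.3 to 19.1) in control and 9.70% (8.63 to 10.8) in *Gli1 HHIPCKO*. The libraries differ in depth within this class, with medians of 4819 and 5718 UMIs per cell. After each cell was thinned to 2000 UMIs, which left out 127 control and 77 *Gli1 HHIPCKO* cells, the shares were 9.92% (8.85 to 11.1) and 4.59% (3.83 to 5.44). The lower share thus stood in the deeper library both before and after thinning. As a measure of background from free RNA, *Areg* was found in 0.315% of control DMF-like cells, at a median of 2501.5 UMIs, and in 0 of 1151 *Gli1 HHIPCKO* DMF-like cells, at a median of 2860 UMIs, with an exact upper limit of 0.320% (3 cells would be 0.261%). Other classes held more. Red cell-like cells had 30 control UMIs, or 25.2 CPM in 5.07% of cells, and 2 *Gli1 HHIPCKO* UMIs, or 1.71 CPM in 1.00% of cells, under the minimum for a measured pair, with a log2 ratio of −3.88 (−6.99 to −1.90). The shares were 1.92% and 1.23% in lymphocyte-like, 1.97% and 0.336% in mesothelial-like, and 0.952% and 1.79% in endothelial-like cells, each from 7 cells or fewer per library with overlapping intervals. How much *Areg* in each class was free RNA was not tested.

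The other epithelial class with a ratio was ciliated-like cells. These held 354 CPM (320 to 391) in the control and 344 CPM (300 to 392) in the *Gli1 HHIPCKO* library, with a log2 ratio of −0.04 (−0.29 to 0.20). Ciliated-like cells thus had the highest *Areg* level of the classes with a ratio in both libraries, and their intervals overlapped almost completely. The difference between the ratios in AT2-like and ciliated-like cells was not tested. Myeloid-like cells held 53.6 CPM (40.0 to 70.3) in the control and 35.2 CPM (18.7 to 60.2) in the other library, from 52 and 13 UMIs, a log2 ratio of −0.61 (−1.61 to 0.29) that was 0.61 with the libraries clustered separately. Taken over all myofibroblast-like cells together, *Areg* had 15 control UMIs and 1 *Gli1 HHIPCKO* UMI.

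*Ereg* encodes epiregulin, a ligand of EGFR and ERBB4, and is a neighbour of *Areg*, with no other protein-coding gene starting in the 45952 bases between them. It had 46 UMIs in the control and 48 in the *Gli1 HHIPCKO* library, and it reached the minimum of 50 in no class. In all myofibroblast-like cells together it had 18 and 21 UMIs, or 2.13 CPM (1.26 to 3.36) and 2.37 CPM (1.46 to 3.62). AT2-like cells held 5 control and 3 *Gli1 HHIPCKO* UMIs of *Ereg*, so the few molecules of this gene lay mostly outside the class where *Areg* differed. The ratio interval excluded 0 in alveolar fibroblast-like cells alone, at −3.04 (−6.38 to −0.56) from 6 and 2 UMIs, too few to count as measured. All of these UMIs lay in a single cluster of that class, where the interval, −5.76 to 0.06, included 0. *Ereg* overlaps the antisense gene *Gm19610*, and reads of these 2 cannot be told apart unless strand was used in the counting.

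*Hbegf* encodes heparin-binding EGF-like growth factor, which binds EGFR and ERBB4 (chr18:36504927-36515805). Its highest level among the classes with a ratio was in pericyte-like cells, with 398 CPM (355 to 445) in the control and 374 CPM (342 to 408) in the *Gli1 HHIPCKO* library. The log2 ratio there was −0.09 (−0.30 to 0.12), and a UMI was found in 44.9% of 437 pericyte-like cells from control and 46.5% of 725 from *Gli1 HHIPCKO*. The interval of this ratio includes 0. Of 3 unnamed clusters in which pericyte markers scored highest, the ratios were 1.32 (0.73 to 1.95), from 45.6 and 114 CPM, 0.67 (0.04 to 1.35), from 119 and 190 CPM, and −0.60 (−1.34 to 0.16), from 179 and 118 CPM, so the named class does not stand for all cells with these markers. Thinned to 2000 UMIs, the shares in the pericyte-like class were 48.8% and 49.8%, with 269 and 434 cells left out as too shallow. Of all myofibroblast-like cells, 1.40% in the control and 1.02% in the *Gli1 HHIPCKO* library had a UMI, at medians of 2849 and 3007 UMIs per cell, while pericyte-like cells had medians of 1714 and 1816.

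*Hbegf* was also measured in both epithelial classes with a ratio. Ciliated-like cells had 35 control UMIs, or 31.5 CPM (21.9 to 43.8), and 42 *Gli1 HHIPCKO* UMIs, or 65.9 CPM (47.5 to 89.1), with a log2 ratio of 1.07 (0.38 to 1.76). This was the 1 of 6 measured members past 2-fold in ciliated-like cells, beside 2.22% of all genes there, and its ratio lay just past the limit, while it was under it, at 0.91, when each cell was given equal weight. The UMIs came from 16 control and 17 *Gli1 HHIPCKO* cells, and thinned to 2000 UMIs the shares were 4.26% (1.85 to 8.21) and 6.06% (2.26 to 12.7), which overlap widely. AT2-like cells had 28.3 CPM (25.7 to 31.2) in the control and 37.2 CPM (34.3 to 40.2) in the *Gli1 HHIPCKO* library, with a log2 ratio of 0.39 (0.21 to 0.58). Within the 2 AT2-like clusters the ratios were 0.04 (−0.19 to 0.28) and 0.04 (−0.45 to 0.49), intervals that include 0, and the thinned shares over the class, 4.997% (4.23 to 5.86) and 5.64% (4.81 to 6.57), overlap. The difference over the class cannot be told apart from the mix of clusters. *Hbegf* and *Areg*, both EGFR ligands, thus had ratios of opposite sign in AT2-like cells as a whole.

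*Tgfa* encodes transforming growth factor α, an EGFR ligand (chr6:86195223-86275719). It was measured in AT2-like cells alone, with 6.64 CPM (5.39 to 8.09) in the control and 8.27 CPM (6.95 to 9.77) in the *Gli1 HHIPCKO* library. The log2 ratio was 0.32 (−0.07 to 0.71), an interval that includes 0. Ciliated-like cells had 15 and 12 UMIs, under the minimum, and alveolar fibroblast-like cells had 4 and 22, or 1.72 and 3.45 CPM, also under the minimum, with a ratio interval of −0.55 to 3.00.

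*Nrg1* encodes neuregulin 1, a ligand of ERBB3 and ERBB4 (chr8:31814551-32884029). It was measured in ciliated-like cells, with 61.1 CPM (47.5 to 77.5) in the control and 54.9 CPM (38.3 to 76.4) in the *Gli1 HHIPCKO* library, and in adventitial fibroblast-like cells, at 20.4 CPM (14.8 to 27.2) and 12.1 CPM (7.81 to 17.8). The ratio in adventitial fibroblast-like cells was −0.75 (−1.52 to −0.02), from 45 and 25 UMIs, and that in ciliated-like cells was −0.15 (−0.79 to 0.45). The 2 adventitial clusters had ratios of −1.63 (−3.27 to −0.20) in one of 388 control and 498 *Gli1 HHIPCKO* cells and 0.32 (−0.59 to 1.21) in one of 198 and 113. These rest on 16 and 6 UMIs and on 29 and 19 UMIs, each pair under the minimum of 50, their intervals overlap, and the difference was not tested. The levels were 11.1 and 3.59 CPM in the first cluster and 37.8 and 47.2 CPM in the second. The ratio over the adventitial class cannot be told apart from the mix of these clusters. In AT2-like cells *Nrg1* had 6 and 4 UMIs. Its level was thus higher in ciliated-like than in adventitial fibroblast-like cells in each library.

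**Figure D1:**
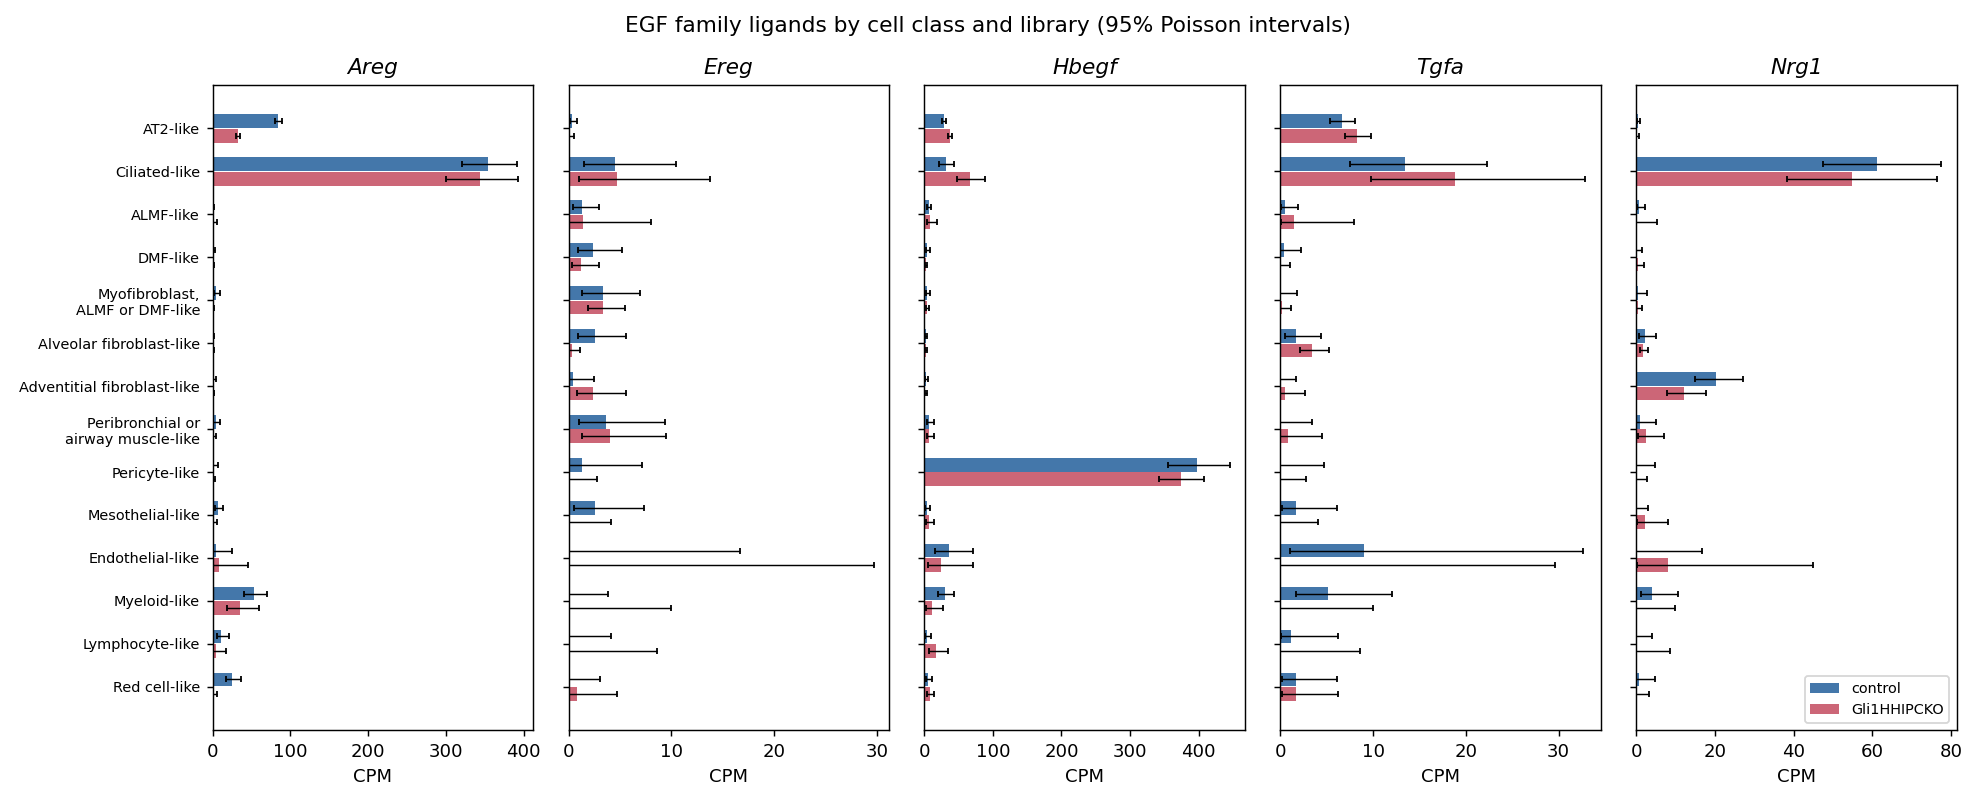
Level of each EGF family ligand (x axis, CPM) in each cell class (y axis) in the control (blue) and *Gli1 HHIPCKO* (red) library, with 95% Poisson intervals as lines. The AT2-like bars of *Areg* stand apart, at 84.6 and 32.1 CPM, while the pericyte-like bars of *Hbegf* lie side by side at 398 and 374 CPM.

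*Egfr* encodes the receptor of *Areg*, *Tgfa*, *Hbegf* and *Ereg* products (chr11:16752203-16918158). It was measured in 11 classes and was found across the mesenchyme. In control cells it was at 142 CPM (128 to 158) in DMF-like, 138 CPM (122 to 154) in adventitial fibroblast-like, 92.5 CPM (79.9 to 107) in mixed myofibroblast-like, 88.8 CPM (79.7 to 98.7) in ALMF-like and 78.5 CPM (67.6 to 90.8) in alveolar fibroblast-like cells. Within this order the first 2 overlap each other, as do the last 3, and the intervals of the 2 sets do not overlap. AT2-like cells were much lower, with 12.5 CPM (10.8 to 14.5) in the control and 9.76 CPM (8.32 to 11.4) in the other library. Thinned to 2000 UMIs, 24.9% (21.8 to 28.2) of control DMF-like and 2.45% (1.91 to 3.08) of control AT2-like cells had an *Egfr* UMI. *Egfr* overlaps the antisense gene *Egfros*, so reads of the 2 cannot be told apart unless strand was used.

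Between libraries, the *Egfr* ratios of mesenchymal classes lay on both sides of 0. All myofibroblast-like cells together held 106 CPM (98.8 to 113) in the control and 102 CPM (95.3 to 109) in the *Gli1 HHIPCKO* library, with a log2 ratio of −0.05 (−0.19 to 0.08). For the DMF-like class the *Gli1 HHIPCKO* level was 117 CPM (106 to 129), a ratio of −0.28 (−0.49 to −0.07), and in adventitial fibroblast-like cells it was 176 CPM (158 to 195), a ratio of 0.35 (0.13 to 0.58). In ALMF-like cells it was 57.4 CPM (41.0 to 78.2), from 40 UMIs in 241 cells, a ratio of −0.63 (−1.14 to −0.15). That direction did not hold: the ratio was 0.28 both with the libraries clustered separately and with genes centred per library. The ratio was −0.02 in alveolar fibroblast-like and 0.00 in mesothelial-like cells, and these 2 signs flipped with either other scaling. Alveolar fibroblast-like cells came from clusters of 405 control and 734 *Gli1 HHIPCKO* cells, 145 and 845, and 121 and 250. Within these the ratios were 0.10 (−0.19 to 0.40), 0.13 (−0.43 to 0.74) and 0.49 (−1.09 to 2.33). In AT2-like cells the ratio was −0.36 (−0.67 to −0.05). Within the 2 AT2-like clusters it was −0.24 (−0.67 to 0.21) and −0.75 (−1.60 to 0.01), intervals that include 0. The ratio was −0.22 in ciliated-like, −0.22 in peribronchial or airway smooth muscle-like and 0.20 in pericyte-like cells. With the libraries clustered separately, the ratio was −0.22 in pericyte-like and 0.01 in adventitial fibroblast-like cells.

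*Egfr* was past 2-fold in red cell-like cells, with 11.7 CPM (6.42 to 19.7) in the control and 31.6 CPM (22.2 to 43.5) in the other library, from 14 and 37 UMIs. The log2 ratio was 1.43 (0.51 to 2.43). It was the 1 member measured there, and 25.5% of all genes measured in that class were past 2-fold, with a median log2 ratio of 0.65 over all genes. Red cells are rich in globin RNA, and its part in this shift was not tested. With TMM or median-of-ratios scaling, which shift this class by −0.63 and −0.65, the ratio was 0.80 and 0.78 and no longer past 2-fold.

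*Erbb2* encodes a receptor with no known ligand of its own that serves as partner of the other receptors (chr11:98412470-98437716). It was measured in 8 classes and its control levels lay between 14.1 CPM (12.2 to 16.1) in AT2-like and 34.2 CPM (24.2 to 46.9) in ciliated-like cells. In all myofibroblast-like cells together *Erbb2* had 27.9 CPM (24.4 to 31.7) in the control and 17.1 CPM (14.5 to 20.1) in the *Gli1 HHIPCKO* library, the log2 ratio being −0.70 (−1.01 to −0.40). The *Gli1 HHIPCKO* level was the lower in each of the 3 myofibroblast-like classes. The ratio was −0.72 (−1.67 to 0.11) in ALMF-like, −0.43 (−0.94 to 0.07) in DMF-like and −0.68 (−1.22 to −0.12) in mixed myofibroblast-like cells, and the lower level was not particular to these, with −0.64 (−1.64 to 0.28) in ciliated-like, −0.18 (−0.92 to 0.60) in pericyte-like, −0.16 (−0.65 to 0.36) in alveolar fibroblast-like and −0.09 (−0.37 to 0.19) in AT2-like cells, beside 0.06 (−0.59 to 0.71) in adventitial fibroblast-like cells. The adventitial fibroblast-like ratio ran from −0.34 to 0.63 over the alternatives, so its sign was not stable. In all myofibroblast-like cells thinned to 2000 UMIs, 5.27% (4.39 to 6.25) of control and 3.17% (2.49 to 3.97) of *Gli1 HHIPCKO* cells had an *Erbb2* UMI. *Erbb2* overlaps the antisense gene *Mien1*, which limits its values in the same way as those of *Egfr*.

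*Erbb3* encodes a receptor of neuregulins with weak kinase activity, which signals with a partner (chr10:128567523-128589652). Among the classes with a ratio it was measured in AT2-like and ciliated-like cells alone. AT2-like cells held 42.3 CPM (39.0 to 45.7) in the control and 46.4 CPM (43.2 to 49.8) in the *Gli1 HHIPCKO* library, a ratio of 0.14 (−0.02 to 0.29), and ciliated-like cells held 58.4 CPM (45.1 to 74.5) and 54.9 CPM (38.3 to 76.4), a ratio of −0.09 (−0.73 to 0.52). All myofibroblast-like cells together had 6 UMIs in each library. Glial-like cells, too few for a ratio with 26 control and 25 *Gli1 HHIPCKO* cells, held 457 CPM (308 to 652) and 379 CPM (252 to 548). ERBB3 is known as the neuregulin receptor of Schwann cells, and among glial-like cells 57.7% (control) and 56.0% (*Gli1 HHIPCKO*) had a UMI.

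*Erbb4* encodes a neuregulin receptor with an active kinase (chr1:68032186-69108059). It had 9 UMIs in the control and 5 in the *Gli1 HHIPCKO* library, and no class reached the minimum. AT2-like cells held 4 and 0 UMIs, the 0 having an exact upper limit of 0.220 CPM (3 UMIs would be 0.179 CPM). *Erbb4* overlaps *Gm16076* on the same strand, so strand does not separate reads in the overlap. *Erbb4* was near the limit of detection in these libraries, and no difference could be read from it.

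**Figure D2:**
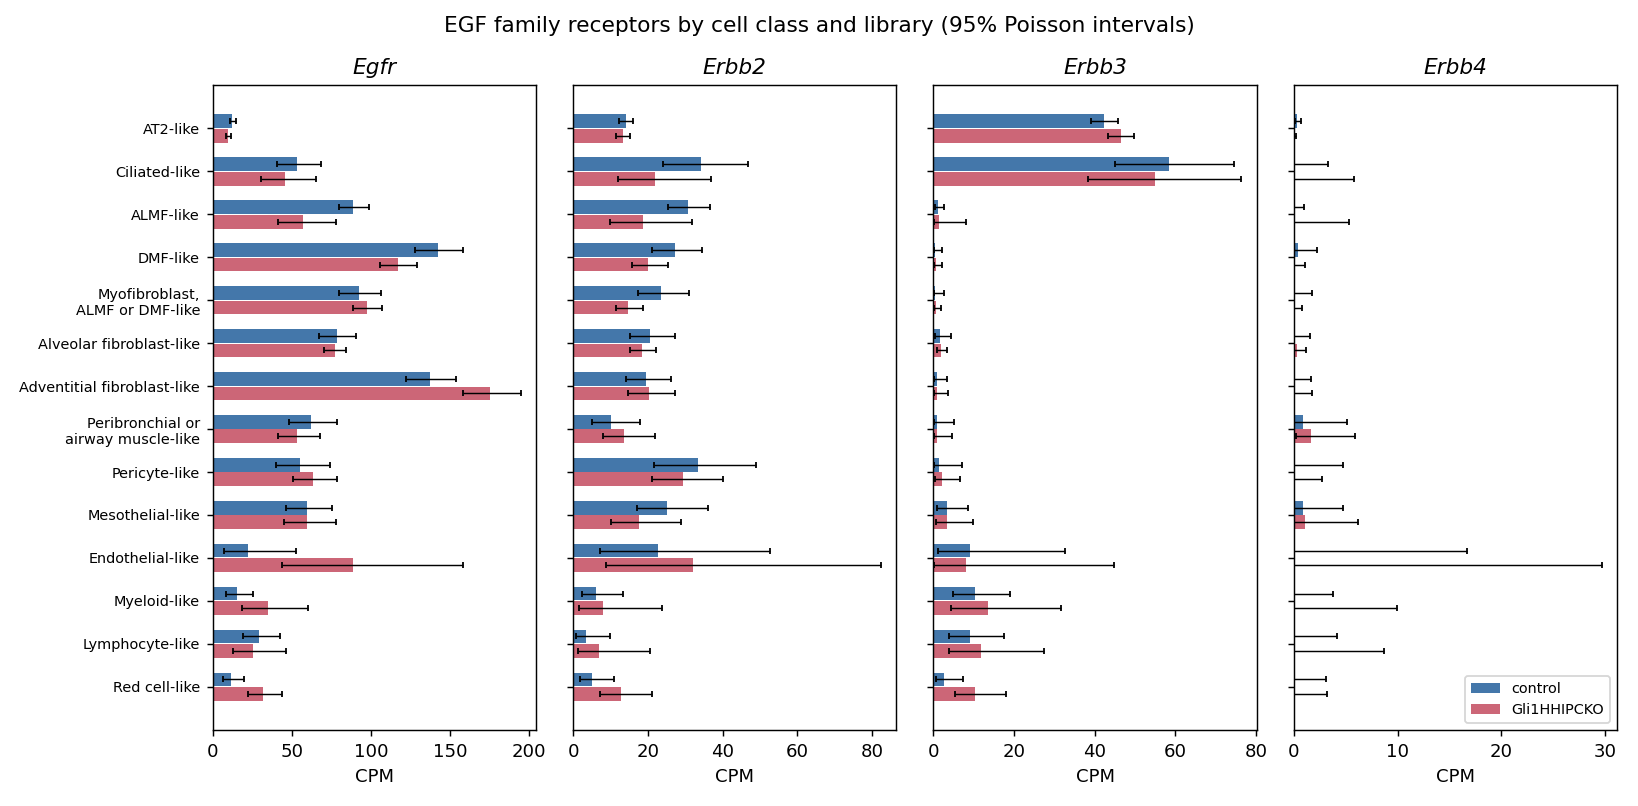
Level of each EGF family receptor (x axis, CPM) in each cell class (y axis) in the control (blue) and *Gli1 HHIPCKO* (red) library, with 95% Poisson intervals as lines. *Egfr* is highest in adventitial fibroblast-like and DMF-like cells, at 138 and 142 CPM in control, and *Erbb3* in the classes shown is highest in ciliated-like and AT2-like cells.

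Over the 14 classes with a ratio, 30 pairs of member and class were measured, and 3 were past 2-fold, namely *Areg* in AT2-like, *Hbegf* in ciliated-like and *Egfr* in red cell-like cells. No member was past 2-fold in ALMF-like cells (0 of 2, beside 4.85% of all genes), DMF-like cells (0 of 2, beside 4.58%), mixed myofibroblast-like cells (0 of 2, beside 4.71%) or all of these together (0 of 3, beside 5.17%). The same was so in adventitial fibroblast-like (0 of 3, beside 3.50%), alveolar fibroblast-like (0 of 2, beside 4.30%), peribronchial fibroblast or airway smooth muscle-like (0 of 1, beside 4.50%) and pericyte-like cells (0 of 3, beside 2.68%). It was also so in mesothelial-like (0 of 1, beside 3.54%) and myeloid-like cells (0 of 1, beside 6.90%). No member was measured in endothelial-like or lymphocyte-like cells, where 7.55% and 5.75% of all genes were past 2-fold. With so few members measured per class, the shares of members cannot be set apart from those of all genes.

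**Figure D3:**
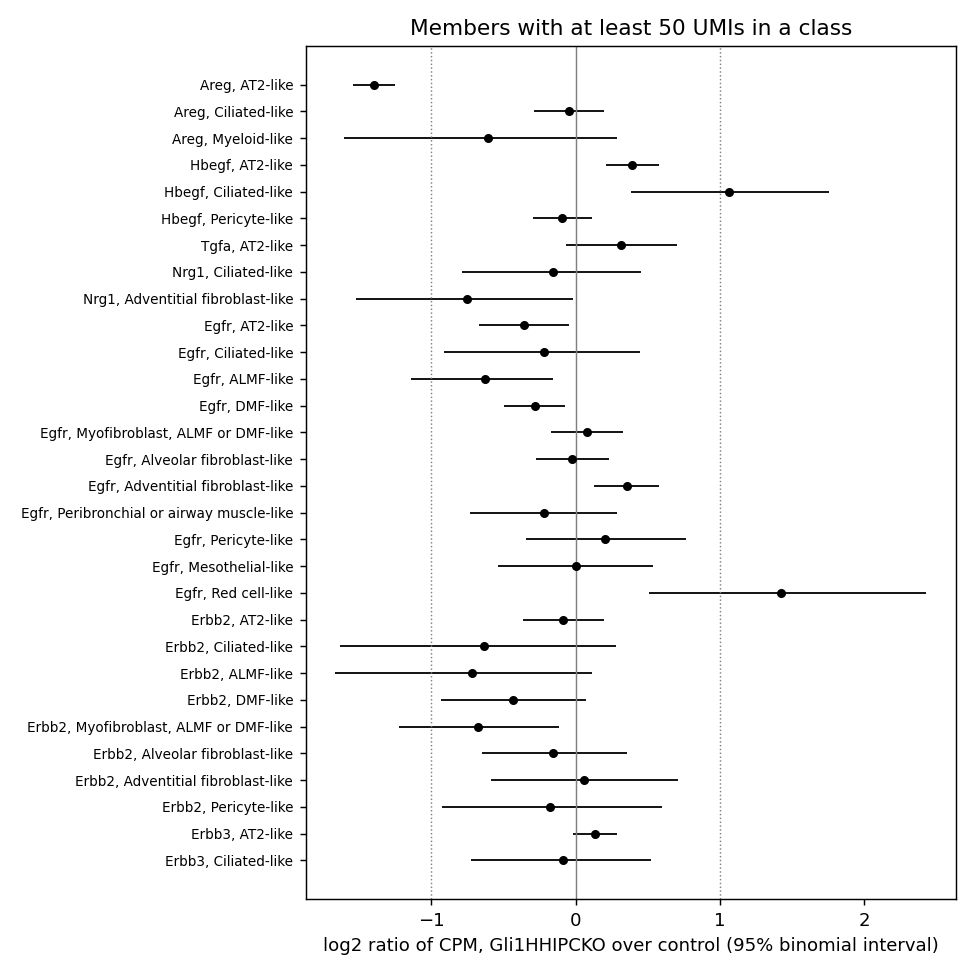
Log2 ratio of CPM, *Gli1 HHIPCKO* over control (x axis), for the 30 pairs of member and class with at least 50 UMIs (y axis), with 95% binomial intervals as lines and 2-fold as dotted lines. The interval of *Areg* in AT2-like cells, −1.54 to −1.25, lies wholly beyond the 2-fold line, while those of *Hbegf* in ciliated-like and *Egfr* in red cell-like cells cross it.

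Other genes of the pathway were taken from lists of further ligands, shedding factors, adaptors, receptor inhibitors, ERK feedback and target genes, and immediate early genes. In ALMF-like cells, 1 of 4 measured shedding genes was higher past 2-fold and 1 lower, with a list median log2 ratio of −0.15 beside 0.01 over all genes, of which 1.80% were higher and 3.04% lower past 2-fold, as for each list in this class. *Timp3*, an inhibitor of the sheddase ADAM17, had 659 CPM in the control and 1493 CPM in the other library, a ratio of 1.18 (1.07 to 1.28). *Rhbdf1*, which escorts ADAM17 to the cell surface, was at 82.7 and 38.8 CPM, a ratio of −1.09 (−1.72 to −0.52). Both genes act on the release of ligands, *Timp3* as an inhibitor and *Rhbdf1* as an escort of ADAM17, and release itself was not measured. Of 6 receptor inhibitors measured, *Errfi1*, whose product binds and inhibits EGFR, was past 2-fold, at 386 and 839 CPM, a ratio of 1.12 (0.98 to 1.26), and the list median was 0.26. Neither *Errfi1* nor *Timp3* was higher in ALMF-like cells alone. *Errfi1* was also past 2-fold in alveolar fibroblast-like (1.67), red cell-like (1.66), lymphocyte-like (1.54), endothelial-like (1.30), myeloid-like (1.26) and ciliated-like cells (1.25), and *Timp3* in red cell-like (1.68), myeloid-like (1.42) and pericyte-like cells (1.36), and how much of either was free RNA was not tested.

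Of 5 ERK feedback and target genes measured in ALMF-like cells, 2 were lower past 2-fold, beside 3.04% of all genes, with a list median of −0.76. *Spry4*, a feedback inhibitor of receptor tyrosine kinase signaling, had 83 control and 7 *Gli1 HHIPCKO* UMIs, a ratio of −1.09 (−2.45 to 0.02), and *Etv4*, an ETS transcription factor, had 60 and 5 UMIs, a ratio of −1.11 (−2.78 to 0.20). Both intervals include 0. In mixed myofibroblast-like cells 2 of 4, *Spry4* (−1.38) and *Etv5* (−1.12), were lower past 2-fold, beside 1.45% of all genes, with a list median of −0.93. The stress-gene-led cluster of that class held 486 control and 666 *Gli1 HHIPCKO* cells, and the other held 104 and 777. Cluster make-up and level within a cluster therefore cannot be told apart in the mixed class. Over all myofibroblast-like cells, 3 of 6 measured genes of this list were lower past 2-fold, beside 1.94% of all genes, with a list median of −0.95 beside −0.02 over all genes. The ALMF-like part of that pool held 1309 control and 241 *Gli1 HHIPCKO* cells, and class make-up and level within a class cannot be told apart in the pooled values. Unlike the other lists, the 12 immediate early genes were not held out of the clustering, so they could shape the classes in which they are compared. Of these genes, *Nr4a1* alone was past 2-fold in ALMF-like cells, at 59.2 and 11.5 CPM. It was also lower past 2-fold in endothelial-like (−2.03), alveolar fibroblast-like (−1.83), peribronchial fibroblast or airway smooth muscle-like (−1.70), adventitial fibroblast-like (−1.61) and mesothelial-like cells (−1.39). In myeloid-like cells it was higher past 2-fold (1.30). None of 4 adaptors was past 2-fold in ALMF-like cells, and no further ligand was measured in them.

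In DMF-like cells, the neuregulin gene *Nrg2*, the 1 further ligand measured, was higher in the *Gli1 HHIPCKO* library, with 25 control and 134 *Gli1 HHIPCKO* UMIs, or 10.0 and 39.2 CPM, a ratio of 1.97 (1.35 to 2.65). *Nrg2* was also higher past 2-fold in mixed myofibroblast-like (2.37) and peribronchial fibroblast or airway smooth muscle-like cells (1.39). Its ratio was under 2-fold in mesothelial-like (0.98), adventitial fibroblast-like (0.24) and alveolar fibroblast-like cells (−0.71). *Phlda1*, the 1 ERK target measured, was at 174 and 83.6 CPM, a ratio of −1.06 (−1.28 to −0.84). *Phlda1* was also lower past 2-fold in peribronchial fibroblast or airway smooth muscle-like (−1.44) and pericyte-like cells (−1.21), and higher past 2-fold in no class. Of the 12 immediate early genes, *Ier3* was higher, with a ratio of 1.15 (0.94 to 1.37), and *Fos* and *Nr4a1* were lower, with ratios of −1.09 (−1.30 to −0.88) and −3.09 (−3.46 to −2.75). The list median was −0.67 beside 0.02 over all genes, of which 2.47% were higher and 2.11% lower past 2-fold. It was −0.17 in ALMF-like and −0.30 in mixed myofibroblast-like cells, but 0.61 over all myofibroblast-like cells together, where *Ier3* alone was past 2-fold and the make-up of the class differs between libraries. *Ier3* was also higher past 2-fold in alveolar fibroblast-like (1.55), red cell-like (1.34) and ciliated-like cells (1.03). *Fos* went the other way past 2-fold in pericyte-like (1.41) and mesothelial-like cells (1.30). Immediate early genes were not held out of the clustering, so their values also helped to set which cells are called DMF-like. The libraries fill different DMF-like clusters, and the part of cell state in the differences in DMF-like cells was not tested. None of 5 shedding genes, 4 adaptors or 6 receptor inhibitors was past 2-fold.

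In AT2-like cells, none of 5 shedding genes, 5 adaptors, 6 receptor inhibitors or 5 ERK feedback and target genes was past 2-fold, and the list medians were 0.22, 0.21, −0.14 and −0.04 beside 0.01 over all genes. The summed level of the receptor inhibitors was 718 CPM in the control and 1253 CPM in the other library, most of it *Errfi1* (653 and 1189 CPM). The 1 further ligand measured, the EGFR ligand gene *Btc*, had 10.4 and 6.55 CPM, a ratio of −0.67 (−1.04 to −0.31). *Atf3*, a stress-responsive transcription factor, was the 1 of 12 immediate early genes past 2-fold, with 294 CPM in the control and 648 CPM in the other library, a ratio of 1.14 (1.09 to 1.19), beside 1.46% of all genes higher past 2-fold, and the list median was 0.62. *Atf3* was also higher past 2-fold in ciliated-like (1.46) and red cell-like cells (2.11), and how much of it was free RNA was not tested. Across classes the list median ran from −0.67 in DMF-like to 0.98 in red cell-like cells. The genes of this list were not held out of the clustering. The libraries fill the 2 AT2-like clusters unevenly, and *Egr1*, a gene of this list, had ratios of 0.05 (−0.02 to 0.12) and 0.00 (−0.18 to 0.17) within them, so a part of cluster make-up in the list median is not excluded.

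Among the genes of the deletion and its named effects, *Hhip* was lower past 2-fold in DMF-like cells, at 2595 and 442 CPM, in ALMF-like cells, at 295 and 145 CPM, and in AT2-like cells, at 3.66 and 1.55 CPM. It was also lower past 2-fold in ciliated-like (−2.34), mixed myofibroblast-like (−2.12), mesothelial-like (−1.69), peribronchial fibroblast or airway smooth muscle-like (−1.62), adventitial fibroblast-like (−1.40) and myeloid-like cells (−1.16). In alveolar fibroblast-like cells it was measured and not past 2-fold. The hedgehog targets *Gli1* and *Ptch1* were higher in DMF-like cells, with ratios of 2.81 and 1.62, as were the growth factor gene *Igf1*, at 1.93, and *Acta2*, the smooth muscle actin gene, at 1.55. *Gli1* (2.29) and *Igf1* (2.07) were also higher past 2-fold in mixed myofibroblast-like cells. So were *Ptch1* and *Igf1* in peribronchial fibroblast or airway smooth muscle-like (1.86 and 1.79) and mesothelial-like cells (1.20 and 1.08), and *Igf1* in myeloid-like cells (3.02). *Acta2* was higher in endothelial-like (3.67) and red cell-like (1.64) and lower in mesothelial-like cells (−1.79). In ALMF-like cells none of *Gli1*, *Ptch1*, *Igf1* and *Acta2* was both measured and past 2-fold. The list median there was 0.94 over the 5 genes measured. *Cdkn1a*, a cell cycle inhibitor gene, was higher in ALMF-like and AT2-like cells, with ratios of 1.77 and 1.53. It was also higher past 2-fold in lymphocyte-like (1.04), red cell-like (1.45), endothelial-like (1.97), alveolar fibroblast-like (1.98) and pericyte-like cells (4.23, from 3 and 98 UMIs), among others, and how much of it was free RNA was not tested. In AT2-like cells the counts of *Hhip* (54 and 26 UMIs) and *Igf1* (23 and 89 UMIs, a ratio of 1.77) were low. Both also lay past 2-fold the same way in lymphocyte-like cells, at −2.03 and 1.39, and in red cell-like cells, at −1.62 and 1.84. How much of either was free RNA was not tested. In each of these 3 classes *Xist* was higher in *Gli1 HHIPCKO* cells, and *Ddx3y*, *Eif2s3y*, *Kdm5d* and *Uty* had 0 UMIs in them.

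The genes most like each member were sought over 28 profiles of class and library, by Pearson's r of log2(CPM + 1) among 12215 genes. They were *Rnf186* (0.92) and *Kdf1* (0.92) for *Areg*, *Cadm1* (0.91) and *Pde8b* (0.88) for *Hbegf*, *Panct2* (0.88) and *Galnt3* (0.86) for *Tgfa*, and *Calml4* (0.83) and *Dnaaf3* (0.82) for *Nrg1*. Among receptors, they were *Chic1* (0.91) and *Sec24d* (0.91) for *Egfr*, *Slc35f5* (0.88) and *Plekha8* (0.85) for *Erbb2*, and *Smim6* (0.96) and *Cldn3* (0.95) for *Erbb3*. *Cldn3* encodes an epithelial tight junction protein and *Dnaaf3* a factor for assembly of ciliary dynein. The profiles come in pairs from 2 libraries and differ in depth, and these coefficients are descriptions of the pattern across classes.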

How the data were processed

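The deposited counts are UMIs per gene and cell, made by the authors with CellRanger 6.1.0 per the file headers on mm10. The labels' processing notes name Cell Ranger 3.1.0, and the labels and the series differ on a 3′ or 5′ kit. The members and lists were chosen with earlier results of these data known.

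Kept cells had 200 to 6000 genes and no more than 10% of UMIs from mitochondrial genes, and doublets were left in. One alternative left out the 953 control and 1174 *Gli1 HHIPCKO* cells nearest to simulated sums of cell pairs, 8.73% and 9.69%, rates assumed from the number of cells. Libraries were clustered together without integration on 2000 variable genes, 30 principal components, 20 neighbours and Leiden resolution 1, with 50 genes held out (members and lists other than immediate early genes). Of 40 clusters, 15 stayed unnamed. A name needed a marker score of 0.3, 3 markers found in 10% of cells and 1 own marker within the 10 leading genes, which the mixed class did not need. Clusters stayed unnamed with a score of 0.15 for a different lineage, a second class at 0.75 of the score, or a median depth over 1.5 times that of the largest cluster of the class. Leading genes of another class also left a cluster unnamed. This applied to the cluster of 264 control and 294 *Gli1 HHIPCKO* cells with the highest score for pericytes, whose *Hbegf* ratio was 1.32. The mesothelial-like cluster was named with a second score of 0.73, for adventitial fibroblasts.

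The naming thresholds were set after the clusters had been seen. They were revised once after a first naming, before member values by class had been computed. A second revision was tried after the counts of members past 2-fold by class had been seen. It named 1 more cluster as red cell-like and would have removed *Egfr* in those cells from the pairs past 2-fold. It was not kept for the values reported and is given among the alternatives.

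Genes named in the text are the members, list genes past 2-fold in the ALMF-like, DMF-like or AT2-like class, *Hhip*, *Xist* and *Ddx3y*, and the 2 genes most like each member. Exceptions are cluster-leading and overlapping genes, *Btc* and *Etv5*, chosen after their values were seen. Ratios and thinning were tested on simulated data. The alternatives covered filters, doublets, scaling, clustering, naming, thresholds and thinning depth. Gene positions are from GENCODE vM21 on GRCm38. Python 3.11.15, numpy 2.4.6, scipy 1.17.1, scanpy 1.11.5, igraph 0.11.9, leidenalg 0.10.2, R 4.3.3 and, for TMM factors, edgeR 4.0.16 were used.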

Additional observations from a re-analysis of the deposited data

How the results depend on the processing

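*Areg* in AT2-like cells stayed past 2-fold under each alternative that gave a ratio, with log2 ratios from −1.51 to −1.32. With genes centred per library, which gave 3 pairs with *Areg* in mesothelial-like cells among them, almost no *Gli1 HHIPCKO* cells were named AT2-like, so that setting gave no value. With centring and the other naming rule together, chosen after seeing the data, it was −1.42. *Hbegf* in ciliated-like cells ranged from 0.91 to 1.09. *Egfr* in red cell-like cells was 2.92 with doublets left out, where it had too few UMIs to count as measured. It was under 2-fold with TMM (0.80) or median-of-ratios scaling (0.78), with no gene held out (0.90), and under the other naming rule (0.89), which was tried after the counts of members past 2-fold had been seen. This pair thus depends on doublets, scaling and the naming of 1 cluster.

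The 3 pairs past 2-fold became 8 with a minimum of 20 UMIs, 47 with a minimum of 1 UMI and 9 at 1.5-fold. With a minimum of 1 UMI AT2-like cells had 2, ALMF-like cells 3 and DMF-like cells 6 of them, and at 1.5-fold there were 2 in ALMF-like cells, because the rules admit more genes by construction. The other alternatives gave 2 or 3 pairs. No ratio for DMF-like cells could be had at resolution 0.5 or with immediate early genes held out too. No paired analysis was possible because there is 1 mouse per condition.

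Clustering the libraries separately changed the sign of 5 of 26 ratios, among them *Areg* in myeloid-like cells (−0.61 to 0.61), and the cause was not tested. Of 60 shares, 45 left their interval when cells were thinned to 1000 UMIs, which removes molecules by construction. *Ereg* and *Erbb4* were measured in no class, and whether depth or low expression lay behind this was not tested.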

Other observations

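Classes under the minimum of 50 cells also held members. In glial-like cells *Hbegf* had 14 control UMIs, or 213 CPM (117 to 358), and 5 *Gli1 HHIPCKO* UMIs, or 67.7 CPM (22.0 to 158), from 26 and 25 cells. These intervals overlap, and the counts are also under the minimum of 50 UMIs, so no ratio is given.

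Each condition is 1 mouse, and the mice differ in sex-linked genes and in treatment as well as in *Hhip*. Class names rest on marker RNA, and sorting set the cell proportions. The libraries fill the ALMF-like, mixed myofibroblast-like and alveolar fibroblast-like classes unevenly, and also the clusters within the DMF-like and AT2-like classes. RNA of a ligand does not show how much protein was made, released or bound. Low counts of *Ereg*, *Tgfa*, *Nrg1* and *Erbb4* leave differences in most classes undetectable.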
